A study of Mus musculus with 6 samples.

Results

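The genes described are the variable (V) segments of the T cell receptor alpha chain (Trav) and beta chain (Trbv) in mouse CD4+ T cells cultured with CpdA or in medium alone. They were taken as every row of the deposited count table whose gene name starts with Trav or Trbv, which gave 102 of 21139 rows, 80 Trav on chromosome 14 and 22 Trbv on chromosome 6. The series compares 3 libraries of cells given 20 µM CpdA, which the series describes as acting on the fatty acid receptor Gpr120 (the unit is written µm in the labels and read here as µM), with 3 libraries of cells in medium alone. All 6 libraries came from spleen CD4+ T cells of C57BL/6J mice activated for 2 days with antibodies to CD3 and CD28. The labels give neither the age of the mice nor a vehicle for the medium cultures. They also do not say that replicate libraries were separate cultures or mice, so the error behind each p-value may be technical.

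A T cell receptor chain is made in the thymus by joining 1 of many V segments to a joining (J) segment, with a D segment between them in the beta chain, and the joined exon is spliced to a constant exon, Trac for alpha and Trbc1 or Trbc2 for beta. The choice is fixed in the DNA of each T cell and its daughters, so the V segments in bulk RNA reflect which clones are present and how much receptor RNA each makes. Antibodies to CD3 bind the invariant part of the receptor complex and stimulate cells whatever V segment they carry. In bulk RNA, fewer cells of a type and less RNA per cell cannot be told apart. The question was whether the share of each V segment in its chain's V counts, its usage, differs between CpdA and medium.

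Library totals ran from 20247761 to 25952169 counts, of which 1708, 2091 and 2120 counts with CpdA, against 1961, 2234 and 2180 counts in medium, fell on Trav rows. Trbv rows held 3561, 4423 and 4045 counts with CpdA, against 3243, 3778 and 3744 counts in medium. The CD4 T cell markers Cd4, Cd3e and Trac summed to 622 to 632 CPM (counts scaled to the library total) with CpdA and to 720 to 730 CPM in medium, without overlap. CD8 T cell markers summed to 7.33 to 9.40 CPM with CpdA and to 7.99 to 8.84 CPM in medium, and B cell markers to 121 to 132 CPM with CpdA and to 111 to 123 CPM in medium. Monocyte and macrophage markers stayed at or below 0.397 CPM in every library.

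The sequence of a V segment shows which reads can be told apart. The last 60 coding bases are shown for the 4 Trbv segments with the highest usage, because this end is joined to the rest of the chain. Capitals mark the last in-frame cysteine codon, which in most segments is the conserved cysteine where the third, hypervariable loop begins. In Trbv1 another in-frame cysteine codon lies just before the marked one.
Trbv1: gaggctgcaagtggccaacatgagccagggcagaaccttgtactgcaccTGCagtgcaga
Trbv3: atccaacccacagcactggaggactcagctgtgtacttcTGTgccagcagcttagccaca
Trbv13-2: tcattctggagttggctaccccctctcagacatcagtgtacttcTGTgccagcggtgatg
Trbv31: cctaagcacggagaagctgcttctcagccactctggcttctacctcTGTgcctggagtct
These ends differ along most of their length. Over the whole coding part, the Trbv segment most like another was 90.6% identical to it (Trbv13-2 and Trbv13-3), and the least like was Trbv31 at 55.2%. All 22 Trbv segments had such a codon within 30 bases of the end, as did all 76 Trav segments with a coding sequence. Sequences are those of GENCODE M21 transcripts on GRCm38.

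The Trav locus is different, since it holds duplicated blocks whose copies carry the letters d and n in their names. Of the 80 Trav segments, 24 were at least 99% identical in coding sequence to another annotated segment and 10 of these were identical to one. The pair Trav7-3 and Trav7d-3, with 2 differences in 337 bases, shows how little separates such copies. Coding bases 193 to 282 are printed, with capitals where the pair differs.
Trav7-3: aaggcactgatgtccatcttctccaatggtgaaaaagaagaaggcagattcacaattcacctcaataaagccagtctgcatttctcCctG
Trav7d-3: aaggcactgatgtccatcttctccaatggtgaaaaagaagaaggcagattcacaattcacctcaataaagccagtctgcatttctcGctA
A read that lies within the coding part and misses these 2 bases cannot be assigned to either. Bases outside the coding part were not compared, and the rule by which the authors counted such reads is not stated. Values of single Trav rows are therefore uncertain. The same comparisons were also made with copies summed, meaning rows whose names differ only by the letter or a -dv ending.

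The alpha chain V segments were lower in sum with CpdA, as was their constant gene, whereas no beta chain V segment or constant gene passed the test. Summed Trav rows stood at 79.8, 80.6 and 84.1 CPM with CpdA, against 96.9, 94.5 and 95.4 CPM in medium, a log2 ratio of -0.23, and the groups did not overlap. Summed Trbv rows stood at 166, 170 and 160 CPM with CpdA, against 160, 160 and 164 CPM in medium, a log2 ratio of 0.04, and here the groups overlapped. No test is given for these sums because they are sums over the chosen genes.

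**Figure D1:**
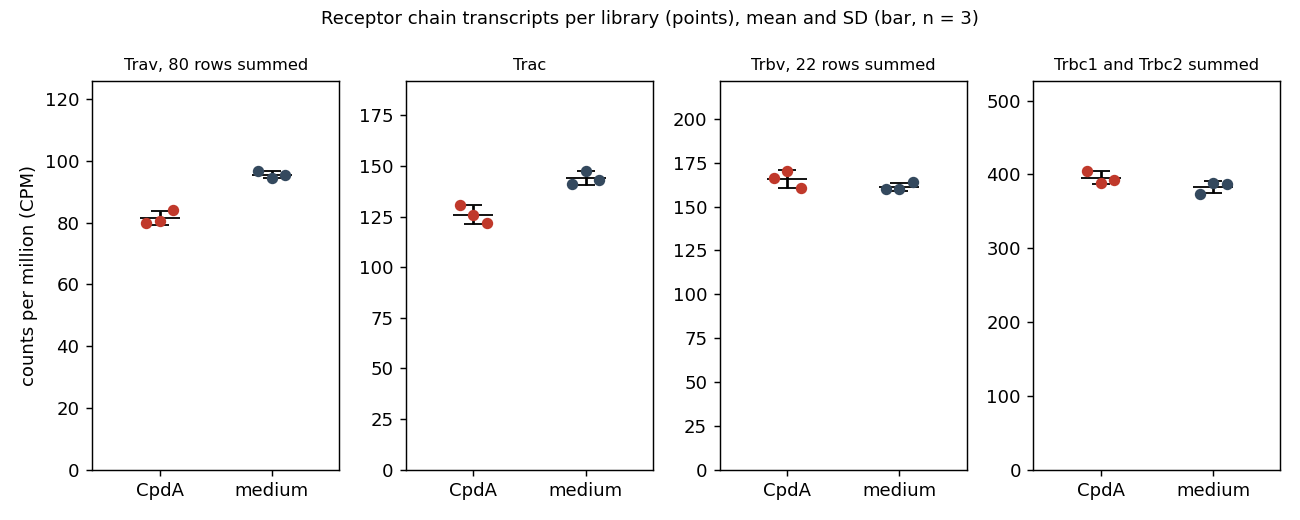
Levels per library in CPM (vertical axes from 0) of summed Trav, Trac, summed Trbv and summed Trbc1 and Trbc2, with CpdA left of medium; points are libraries and bars the mean and SD of 3. The CpdA points lie below all medium points for Trav (79.8 to 84.1 against 94.5 to 96.9 CPM) and for Trac, and overlap them for Trbv.

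The constant genes, which are not among the V segments, could be tested one by one with edgeR's quasi-likelihood test. Their p-values were adjusted over all 13507 tested genes by the Benjamini-Hochberg method. Trac (chr14:54220521-54223097), the only alpha constant gene, had 131, 126 and 122 CPM with CpdA, against 141, 148 and 143 CPM in medium, and every CpdA library was below every medium library. Trac fell by 0.20 on the log2 scale (SE 0.04, adjusted p = 1.5e-05). The beta constant genes Trbc1 and Trbc2 did not pass, with log2 fold changes of 0.03 (95% interval -0.03 to 0.10, adjusted p = 0.470) and 0.04 (-0.02 to 0.10, adjusted p = 0.378). Trbc1 overlapped between groups, and Trbc2 had 241, 235 and 234 CPM with CpdA, against 224, 232 and 232 CPM in medium, all CpdA libraries being above the medium libraries. The number of Trac counts per Trbc count was 0.322, 0.324 and 0.309 with CpdA, against 0.377, 0.381 and 0.370 in medium, and the groups did not overlap (exact permutation p = 0.1, two-sided, the smallest that 3 libraries against 3 can give).

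Relative to its constant gene each chain's V total overlapped between groups. There were 0.611, 0.640 and 0.692 Trav counts per Trac count with CpdA, against 0.687, 0.640 and 0.666 in medium. There were 0.411, 0.438 and 0.408 Trbv counts per Trbc count with CpdA, against 0.428, 0.412 and 0.423 in medium. Transcripts of the CD3 and zeta subunits, which carry the receptor to the surface and signal for it, fell as well. Cd3e, Cd3g and Cd247 fell by 0.27, 0.21 and 0.28 on the log2 scale (adjusted p = 7.6e-09, 5.3e-06 and 5.5e-09), and Cd3d fell by 0.12 (adjusted p = 0.003), all with edgeR and with no overlap between groups. The Cd3d call was lost without CpdA replicate 3 (log2 fold change -0.09, adjusted p = 0.0534). Whether these lower levels, or those of the CD4 T cell markers, have a part in the Trav result was not tested.

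In the beta chain usage was uneven. Trbv1 (chr6:40891296-40891885), coding for the Vβ2 family, was first, with 16.0% of Trbv counts in each of the 3 CpdA libraries and 15.8%, 16.1% and 15.7% in medium. Trbv3 (chr6:41048394-41048824) followed with 11.8%, 11.9% and 10.9% with CpdA, against 12.4%, 10.5% and 11.5% in medium. The 10 segments with the highest mean share held 75.4% of Trbv counts, and 2 of the 22 segments, Trbv30 and Trbv21, held under 1%. Per length, in the authors' FPKM, Trbv1 stood at 75.7 ± 2.2 with CpdA and 73.2 ± 0.8 in medium (SD, n = 3), above Trbv3 at 55.1 ± 4.3 with CpdA and 53.2 ± 4.5 in medium. Trbv13-2, at 39.6 ± 2.5 with CpdA and 41.7 ± 3.3 in medium, and Trbv31, at 37.8 ± 2.9 with CpdA and 39.0 ± 1.5 in medium, came next and differed from each other by less than the SD of Trbv13-2.

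**Figure D2:**
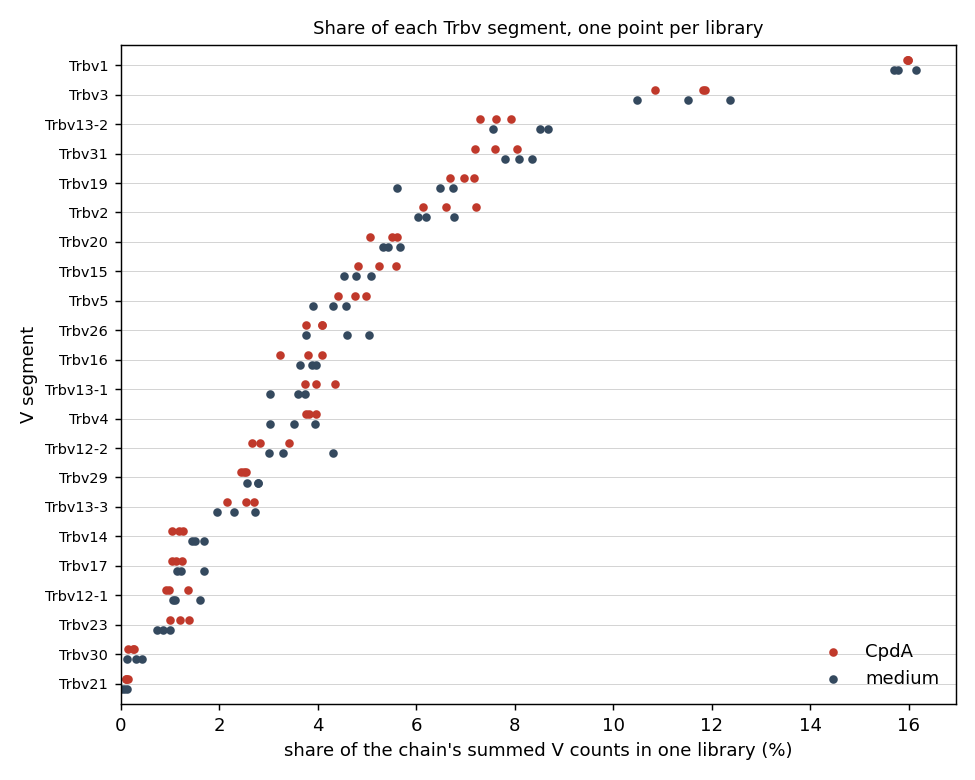
Share of each of the 22 Trbv segments in the summed Trbv counts of a library (horizontal axis, percent), with CpdA points above medium points in each row and 1 point per library. The order runs from Trbv1 (mean 15.9%) to Trbv21 (mean 0.0888%), and the groups overlap in every row apart from Trbv14 and Trbv29.

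The usage of no Trbv segment passed the test. Of the 21 Trbv segments above the count filter, 0 were called in either direction at an adjusted p under 0.05, by edgeR fitted to the whole table with the Trbv sum of each library as the reference for these rows. In that fit 33.2% of all tested genes were called, and 41.5% had an unadjusted p under 0.05, as did 1 Trbv segment, Trbv14. The share of Trbv14 (chr6:41135167-41135609) was 1.18%, 1.04% and 1.26% with CpdA, against 1.51%, 1.69% and 1.44% in medium. The groups did not overlap, and the log2 difference in usage was -0.42 (95% interval -0.83 to -0.01, adjusted p = 0.113). Trbv23 had the largest difference upward, with shares of 1.38%, 1.20% and 0.99% with CpdA, against 0.74%, 1.01% and 0.85% in medium, which overlapped (log2 difference 0.44, adjusted p = 0.167). Trbv14 and Trbv23 were singled out after their values were seen.

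For the common Trbv segments the data bound the difference between these libraries closely. Like the p-values, the intervals rest on an error that may be technical, so they may not cover differences between cultures or mice. The log2 difference in usage of Trbv1 was 0.01 with a 95% interval from -0.12 to 0.13, and that of Trbv3 was 0.01 with an interval from -0.14 to 0.17. Trbv19 held 6.68%, 6.96% and 7.17% with CpdA, against 6.75%, 5.61% and 6.49% in medium (log2 difference 0.15, 95% interval -0.05 to 0.34, adjusted p = 0.259). Trbv26 held 3.76%, 4.09% and 4.08% with CpdA, against 4.59%, 5.03% and 3.77% in medium (-0.16, interval -0.41 to 0.08, adjusted p = 0.327). Both overlapped between groups, as did Trbv2, Trbv20, Trbv15 and Trbv5, whose log2 differences were 0.07, -0.02, 0.12 and 0.14. Of the 21 tested Trbv segments, 16 had an interval wholly within a 1.5-fold difference in either direction.

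The Trbv13 segments, which code for the Vβ8 family bound by a widely used set of antibodies, include the closest pair of the beta locus, Trbv13-2 and Trbv13-3. Trbv13-2 held 7.92%, 7.62% and 7.29% with CpdA, against 7.55%, 8.68% and 8.52% in medium, and Trbv13-1 held 3.96%, 3.73% and 4.35% with CpdA, against 3.02%, 3.60% and 3.74% in medium. Trbv13-3 held 2.70%, 2.15% and 2.55% with CpdA, against 1.94%, 2.73% and 2.30% in medium. All 3 overlapped between groups, and their log2 differences were -0.12, 0.21 and 0.07 (adjusted p = 0.313, 0.213 and 0.780, edgeR). Trbv13-2 and Trbv13-3 differ at 32 of 340 coding bases, of which 10 lie in the first 90, shown with capitals at the differences.
Trbv13-2: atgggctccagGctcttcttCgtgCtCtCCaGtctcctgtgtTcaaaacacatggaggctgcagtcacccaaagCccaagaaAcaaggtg
Trbv13-3: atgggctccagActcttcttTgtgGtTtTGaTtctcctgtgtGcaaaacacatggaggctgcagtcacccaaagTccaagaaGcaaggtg
Trbv29 held 2.44%, 2.51% and 2.55% with CpdA, against 2.78%, 2.57% and 2.78% in medium. These groups did not overlap, and the log2 difference was -0.11 (adjusted p = 0.600).

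Alpha chain usage was spread over more segments. The highest mean share was 4.49% in Trav8-2, none passed 5%, and 43 of the 80 held under 1%. The Trav8-2 row is 2371 bases long and stood at 1.69 FPKM on average. It spans chr14:53738302-53741038, whereas GENCODE M21 places the segment at chr14:53738375-53738838. Its counts may therefore include reads from outside the segment. The effective number of segments, the count of equally used segments with the same Shannon diversity, was 53.3, 52.0 and 52.9 of 80 for Trav with CpdA, against 51.8, 53.6 and 53.03 in medium. For Trbv it was 16.0, 15.9 and 16.1 of 22 with CpdA, against 15.8, 16.3 and 16.0 in medium. Both overlapped between groups. By family, where d and n copies are summed, Trav14 came first with 17.6%, 18.2% and 17.1% with CpdA, against 17.2%, 15.8% and 15.3% in medium. Trav7 followed with 14.2%, 13.9% and 13.02% with CpdA, against 13.3%, 14.9% and 13.99% in medium. Trav8 came next with 8.20%, 9.71% and 10.8% with CpdA, against 9.94%, 9.53% and 10.7% in medium, and all 3 families overlapped between groups. The mean Trav8 share of 9.81% includes the 4.49% of the Trav8-2 row, so the rank of this family depends on that row. Of 21 Trav families 2 did not overlap, Trav6 and the little-used Trav20, and of 19 Trbv families 3 did not, Trbv12, Trbv14 and Trbv29. By CPM, a measure of the level of single genes and not of family shares, 43.9% of all tested genes did not overlap between groups. Trav6 and Trbv12 were named after their values were seen. Trav6 held 9.48%, 7.89% and 9.58% with CpdA, against 10.4%, 9.62% and 9.72% in medium. Trbv12 held 3.65%, 4.18% and 4.33% with CpdA, against 5.37%, 4.63% and 4.38% in medium. No test was made on family shares.

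**Figure D3:**
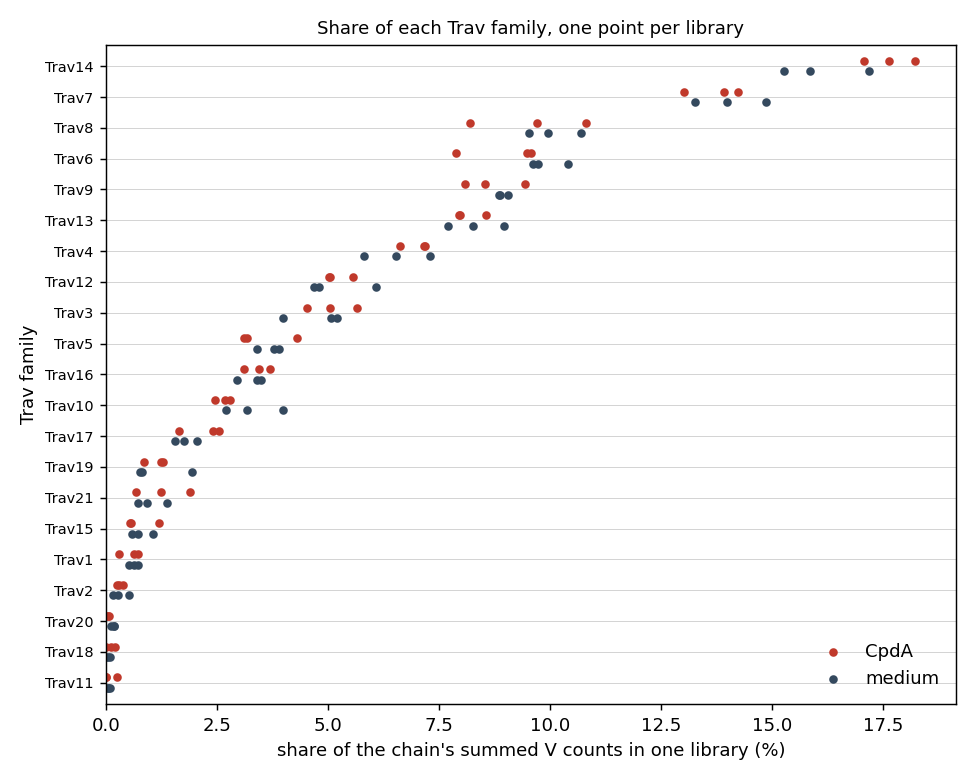
Share of each of the 21 Trav families in the summed Trav counts of a library (horizontal axis, percent), with CpdA points above medium points in each row and 1 point per library. Trav14 (15.3% to 18.2%) and Trav7 (13.02% to 14.9%) lead, and the groups overlap in both.

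The last 60 coding bases of the 4 Trav segments with the highest counts among those with a coding sequence were as follows, with the last in-frame cysteine codon in capitals.
Trav4-4-dv10: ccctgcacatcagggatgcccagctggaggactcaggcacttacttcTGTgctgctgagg
Trav7-2: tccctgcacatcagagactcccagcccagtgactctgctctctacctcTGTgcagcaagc
Trav14n-3: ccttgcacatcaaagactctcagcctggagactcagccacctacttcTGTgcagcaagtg
Trav3-3: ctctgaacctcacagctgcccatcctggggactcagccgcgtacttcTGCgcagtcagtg
Trav14n-3 had the highest level per length, 12.05 ± 2.01 FPKM with CpdA and 12.8 ± 1.6 FPKM in medium (SD, n = 3). Trav4-4-dv10 was next with 9.76 ± 1.15 FPKM with CpdA and 10.8 ± 1.9 FPKM in medium, and single libraries of these 2 segments overlapped in both groups. Their log2 differences in usage were 0.15 and 0.09, and those of Trav7-2 and Trav3-3 were -0.02 and 0.12, with adjusted p from 0.545 to 0.942 (edgeR). Trav7-4, Trav14-3 and Trav14-2, also among the 10 with the highest counts, had log2 differences in usage of 0.06, 0.13 and -0.11, and all 3 overlapped between groups.

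In level, 4 Trav segments were called lower with CpdA and none higher, with p-values adjusted over all tested genes (edgeR). They were Trav6-7-dv9, Trav9-4, Trav13-1 and Trav8-2, 4 of 77 tested V segments (5.19%), where 33.2% of all tested genes were called, 16.7% lower and 16.5% higher. The unadjusted p (edgeR) was under 0.05 for 5 of the 77 V segments and for 41.5% of all tested genes. For the 4 called segments it ran from 0.0029 to 0.0106. No adjustment over the V segments alone was made, so these calls depend on adjusting together with the many changed genes of the table. V segments had a median of 39.2 counts per library and all tested genes 524. Of the 56 tested Trav segments, 47 had a log2 fold change below 0, with a median of -0.28, and of the 21 tested Trbv segments 10 did, with a median of 0.01. Over all tested genes 49.9% were below 0. CPM values of the groups did not overlap for 14 Trav segments, all lower with CpdA, and for 3 Trbv segments, 1 lower and 2 higher, 17 of 77 in all (22.1%), where 43.9% of all tested genes did not overlap (21% lower and 22.9% higher with CpdA).

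Trav6-7-dv9 (chr14:53709902-53710417) had 2.01, 1.35 and 2.02 CPM with CpdA, against 3.46, 2.28 and 2.84 CPM in medium (log2 fold change -0.68, SE 0.21, adjusted p = 0.0117). Trav13-1 (chr14:53545014-53545521) had 2.52, 2.39 and 2.46 CPM with CpdA, against 3.61, 3.89 and 3.15 CPM in medium (-0.54, SE 0.18, adjusted p = 0.0153). In both, as in the other 2, every CpdA library was below every medium library. Trav9-4 (chr14:53676141-53676629) had 1.73, 1.89 and 1.23 CPM with CpdA, against 2.22, 2.71 and 2.36 CPM in medium (-0.60, adjusted p = 0.0316). Trav8-2 (chr14:53738302-53741038), typed as a pseudogene in the deposited table and in GENCODE M21, had 3.41, 3.01 and 3.93 CPM with CpdA, against 4.44, 4.31 and 4.90 CPM in medium (-0.41, adjusted p = 0.0348). Each of the 4 rested on under 100 counts per library on average, and each lost its call when some library was left out: 2 of the 4 remained without CpdA replicate 2, and 2 each without medium replicate 1, 2 or 3. Trav13-1 had an adjusted p of 0.0723 (edgeR) without medium replicate 2, the highest over its alternatives. The lowest was 0.0105 (edgeR), with copies summed by name. The DESeq2 Wald test called 2 of the 4, Trav13-1 and Trav6-7-dv9.

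The last 60 coding bases are shown for the 3 segments called lower in level that have a coding sequence. Whether these ends differ from those of close copies was not examined.
Trav6-7-dv9: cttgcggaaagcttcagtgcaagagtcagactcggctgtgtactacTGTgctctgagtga
Trav9-4: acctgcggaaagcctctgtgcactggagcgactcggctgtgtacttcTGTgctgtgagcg
Trav13-1: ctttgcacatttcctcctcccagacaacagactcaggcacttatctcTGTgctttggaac
Each has a close copy. The nearest annotated segments were Trav6n-7 at 98.3%, Trav9d-2 at 97.9% and Trav13d-1 at 96.4% identity. Trav6n-7 and Trav9d-2 have no row among the counts, so the setting with copies summed could not include them.

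None of these 4 passed once each was measured as a share of Trav counts. Of 56 tested Trav segments, 0 were called in usage in either direction, and 1, Trav6-7-dv9, had an unadjusted p under 0.05, where 41.5% of all tested genes did. Its share was 2.52%, 1.67% and 2.41% with CpdA, against 3.57%, 2.42% and 2.98% in medium, and the groups overlapped (log2 difference -0.44, 95% interval -0.88 to -0.01, adjusted p = 0.109). Trav13-1 held 3.16%, 2.97% and 2.92% with CpdA, against 3.72%, 4.12% and 3.30% in medium, without overlap (-0.30, interval -0.66 to 0.05, adjusted p = 0.198). Trav9-4 and Trav8-2 overlapped, with log2 differences of -0.36 and -0.17 (adjusted p = 0.223 and 0.415). Without CpdA replicate 2, 1 V segment was called in usage, Trav12d-1, which was below the count filter with all 6 libraries (log2 difference 1.34, adjusted p = 0.0437), which had 17, 5 and 12 counts with CpdA, against 4, 8 and 7 counts in medium, and is identical in coding sequence to Trav12n-1.

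**Figure D4:**
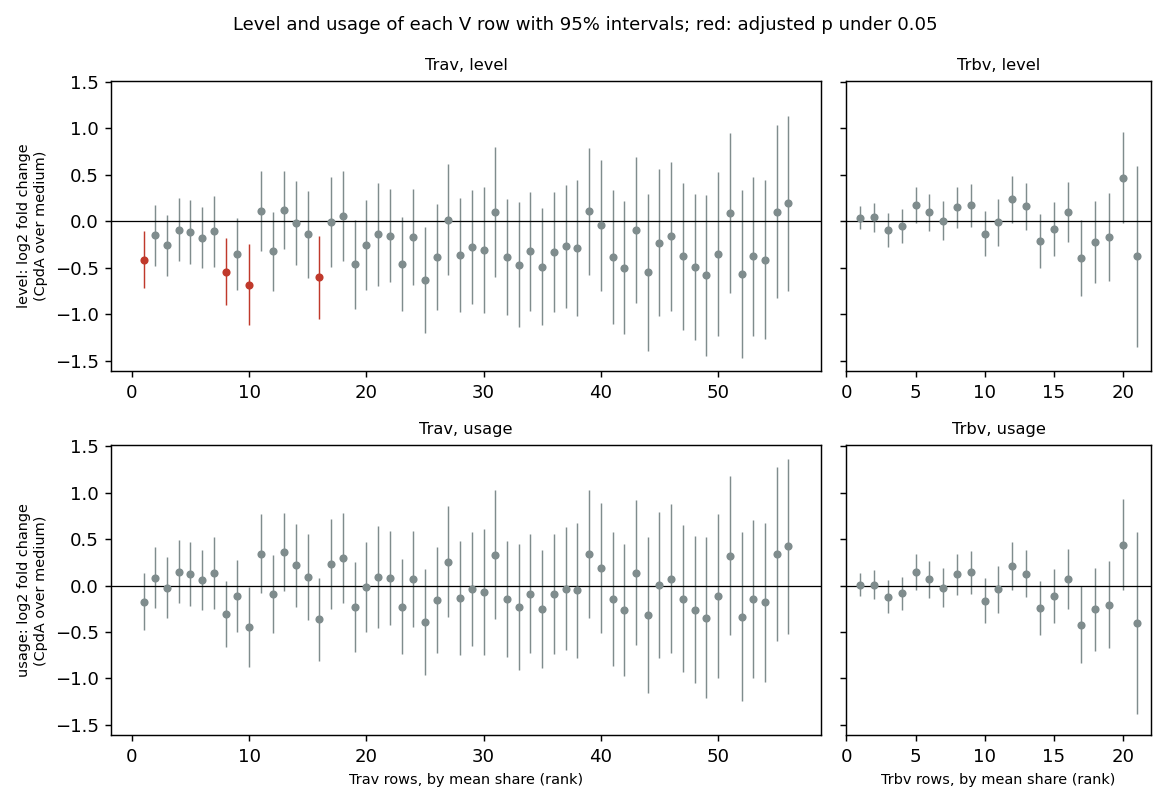
Log2 difference of CpdA over medium (vertical axes) in level (upper panels) and in usage (lower panels) of the 56 Trav and 21 Trbv segments tested, ordered by mean share; bars are 95% intervals and red marks an adjusted p under 0.05. In level, 47 of 56 Trav points lie below 0 and 4 are red; in usage 32 of 56 lie below 0 and 0 are red.

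Counts were too low to bound most single Trav segments as closely. Of the usage intervals, 12 of 56 for Trav lay within a 1.5-fold difference and 46 within a 2-fold difference, against 16 and 20 of 21 for Trbv. The remaining 24 Trav segments and Trbv21 were below the count filter. Those Trav segments held 4.28% to 6.09% of Trav counts in a library.

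Invariant alpha chains mark innate-like T cells. Trav11 and its identical copy Trav11d carry the chain of invariant natural killer T cells and together had 0, 5 and 0 counts with CpdA, against 1, 2 and 1 in medium, so a difference was not detectable at this depth. Trav1, the segment of mucosal-associated invariant T cells, had 5, 13 and 15 counts with CpdA, against 14, 14 and 11 in medium, which overlapped (log2 fold change in level -0.38, adjusted p = 0.540). With Zbtb16 and Klrb1c these segments summed to 1.96 to 2.86 CPM with CpdA and to 2.83 to 4.99 CPM in medium, mostly Zbtb16.

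Taking all segments of a chain at once, the distances between CpdA and medium libraries lay within the range of the distances inside the groups. The distance between 2 libraries, the share of V counts that would have to move to another segment for the usage of both to match, was 10.8 to 13.0 percentage points for Trav between groups (9 pairs), 12.6 to 13.8 within CpdA and 10.4 to 13.5 within medium (3 pairs each). For Trbv it was 3.64 to 5.91 points between groups, 3.23 to 3.85 within CpdA and 4.36 to 6.09 within medium, so that most pairs between groups were further apart than the CpdA pairs and none further than the furthest medium pair. Chi-square per degree of freedom, which counting error alone holds near 1, was 1.25 to 1.71 between groups, 1.46 to 1.77 within CpdA and 1.17 to 1.81 within medium for Trav. For Trbv it was 0.741 to 2.48 between groups, 0.814 to 1.13 within CpdA and 1.22 to 2.33 within medium. By this measure, unlike the distance, the Trbv pairs between groups went outside the span of the pairs inside the groups at both ends. These are descriptions over the segments, with no test.

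**Figure D5:**
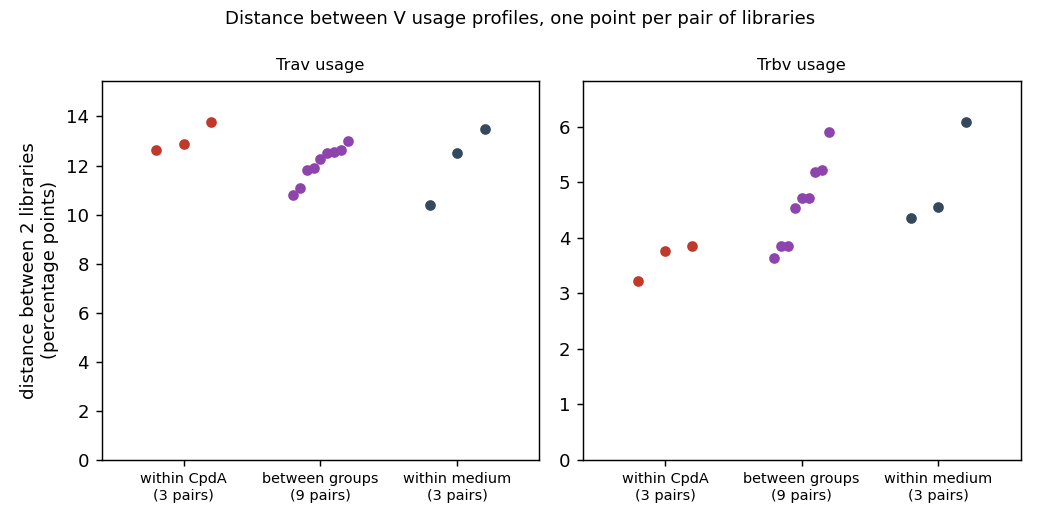
Distance in V usage between 2 libraries, in percentage points (vertical axes from 0), for Trav (left) and Trbv (right), with 1 point per pair of libraries. Pairs between groups (10.8 to 13.0 for Trav, 3.64 to 5.91 for Trbv) lie within the span of the pairs inside the groups.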

How the data were processed

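The deposited table gives raw read counts per gene for 6 libraries, per the file headers, and FPKM values by the authors, which equal the count over gene length and library total. CASAVA 1.8, GRCm38 and mm10 are listed in the submitters' processing notes, with the aligner, counter and strand setting not given in the sources used here. All members and lists were chosen with earlier results of these data known. Named genes are the 10 Trav and 10 Trbv rows with the highest mean share, every called V row, a fixed set (Trav1, Trav11, Trav11d, Trbv1, Trbv13-1, Trbv13-2, Trbv13-3, Trbv29) and the receptor genes; others are said to be chosen after seeing values, as were those named with a setting that called them.

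Counts were tested in R 4.3.3 with edgeR 4.0.16 (TMM, robust quasi-likelihood, filterByExpr with a minimum count of 10 and total of 15). For usage, offsets of V rows were the library's summed Trav or Trbv counts, and p-values were adjusted over all genes. SE is the log2 fold change over the square root of F. Steps were tested on simulated data. Replicate numbers did not pair libraries (correlations of deviations -0.02 to -0.001). Of the 102 segments, 99 matched GENCODE M21 by ID and 3 by symbol, and all overlapped its position. Alternatives were DESeq2 1.42.0, other scaling and filters, summed copies, other V sums, a replicate block and leaving out each library. A count of 0 in a library allows up to 0.148 CPM, covering counting error only.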

Additional observations from a re-analysis of the deposited data

How the results depend on the processing

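The count of V segments called in level (4) was 2 with the DESeq2 Wald test (Trav13-1 and Trav6-7-dv9) and 2 to 4 with 1 library left out. It was 4 with DESeq2 size factors, library totals or no count filter, 3 with at least 50 counts in 3 libraries and 5 of 60 with copies summed, where Trav10 was added. With the replicate block it was 4 again, and the numbers did not pair the libraries. Without CpdA replicate 1 the 4 called were not the same 4. Trav8-2 was lost there and Trav9n-4 was added (log2 fold change -0.83, adjusted p = 0.0495, edgeR). The count called in usage (0) was 0 under these settings (the DESeq2 Wald test was not run on usage), with pseudogenes or the most abundant row out of the V sums and with the replicate block, and 0 to 1 with 1 library left out. The log2 ratio of summed Trav was -0.25 to -0.21 and that of summed Trbv 0.02 to 0.06 with 1 library left out, and -0.24 and 0.03 with TMM. The median Trav level stayed below 0 in every setting. Of 717 single values recomputed, 13 lost a call, and 22 uncalled ones changed sign. Most of the 717 were not called at the start and so had no call to lose. Apart from that of Cd3d, the lost calls were those of the 4 V segments called lower in level. Only named genes were followed, so calls gained by other rows are not counted there. Profile distances over rows with at least 100 counts on average could be had for Trbv only and moved by less than their spread.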

Other observations

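The joining segments, which were chosen after their values were seen, were also lower in sum with CpdA. Traj rows summed to 13.5, 17.6 and 14.01 CPM with CpdA, against 23.5, 19.0 and 23.2 CPM in medium, and 2 of 13 tested rows were called, both lower (Traj1 and Traj2), where 33.2% of all tested genes were called. Trbj rows summed to 20.2, 24.04 and 21.1 CPM with CpdA, against 26.4, 25.1 and 25.1 CPM in medium, with 2 of 12 tested rows called, both lower. These were Trbj1-3 (log2 fold change -0.53, adjusted p = 0.00937, edgeR) and Trbj1-5 (-0.41, adjusted p = 0.0202). Single Trbj rows did not all go down. The log2 fold change was below 0 in 8 of the 12 tested Trbj rows, against 12 of the 13 tested Traj rows. The largest Trbj change was upward, in Trbj2-1 (log2 fold change 0.82, adjusted p = 0.0664, edgeR), which was not called. In both sums the CpdA libraries lay below the medium libraries.

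Dntt, which codes for the enzyme that adds bases without template at V(D)J joints, had 16.4, 20.8 and 20.3 CPM with CpdA, against 30.5, 26.9 and 27.6 CPM in medium (log2 fold change -0.57, adjusted p = 1.5e-07, edgeR). Rag1, a subunit of the recombinase, had 1 count over the 3 CpdA libraries and 0 over the 3 medium libraries. Delta chain V segments (Trdv) had 16, 23 and 17 counts with CpdA, against 21, 22 and 24 counts in medium, and the gamma chain segment Trgv2 had 3, 2 and 4 counts with CpdA, against 1, 2 and 0 in medium. The gamma constant genes Tcrg-C1, Tcrg-C2 and Tcrg-C4 summed to 0.280, 0.231 and 0.0794 CPM with CpdA, against 0.444, 0.423 and 0.525 CPM in medium. Of the 7 fixed gamma delta markers, 1 name, Sox13, matched a row, at 0.635 to 1.16 CPM over the 6 libraries.

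Among Trav segments, levels did not follow likeness in one direction. The 24 with a copy at least 99% identical had a median of 1.27 FPKM (range 0.0193 to 8.72), and the 38 with a nearest segment 95% to 99% identical a median of 3.46 FPKM. The 14 with no segment as close as 95% had a median of 1.51 FPKM, and the 10 with an identical copy, counted among the 24, a median of 0.182 FPKM. Copies with the letter d held 13.6%, 14.1% and 14.2% of Trav counts with CpdA, against 12.4%, 13.1% and 11.9% in medium, without overlap. Copies with the letter n held 13.7%, 11.9% and 13.8% with CpdA, against 14.1%, 12.5% and 13.7% in medium.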
